A study of Saccharomyces cerevisiae with 4 samples.

Results

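The genes described here encode proteins of the mitochondrial ribosome of budding yeast, Saccharomyces cerevisiae. Membership was set by name alone: 67 genes in the RefSeq annotation carry a current symbol made of MRPL, MRPS, MRP or RSM and a number. Of these, 65 had a row among the 6207 yeast rows of the array table and 64 had values on at least 3 of the 4 arrays. MRPL15 and MRP10 were not found under their current locus tags and were not analysed here, and MRPL33 had a row with no value on any array. The rule for membership uses no measured value, but the group was chosen with earlier results of these data known. The annotation gives 62 of the 64 measured genes a systematic mitochondrial ribosomal protein name, 36 in the large subunit and 26 in the small subunit. RSM22 and MRP8 carry no such name.

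The mitochondrial ribosome translates the few messages of the mitochondrial genome, which encode mainly membrane subunits of the respiratory chain and of ATP synthase. Nearly all of its proteins are encoded in the nucleus, made in the cytosol and imported. Many descend from bacterial ribosomal proteins, and others exist only in mitochondrial ribosomes. In yeast these genes are known to be expressed more under respiratory than under fermentative growth, and their messages are known targets of the RNA-binding protein Puf3.

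Both groups of cells were a hog1 mutant, altered in the gene of the MAP kinase that responds to high osmolarity, growing at 24 °C in YEPD, a rich glucose medium. One part of each culture received Zymolyase 100T, an enzyme preparation that digests the beta-1,3-glucan of the cell wall, at 5 units/ml, and the other part received none. RNA was taken at 3 h of growth from 2 cultures, and each culture was hybridised to 2 two-colour arrays that included a dye swap. Cy3 labelled the treated RNA of arrays 1 and 3, and Cy5 that of arrays 2 and 4.

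Values are log2 ratios of treated over untreated cells. This direction is assumed, as the labels do not state it. With arrays 2 and 4 turned, the deposited numbers are logarithms of ratios rounded to a fixed number of decimals in 1 direction only. That form shows that the same condition was the numerator on all 4 arrays, but it cannot show which condition. The opposite direction would turn every sign below and leave all sizes. HOG1 had no value on any array, so the strain could not be checked, and no wild-type cells were analysed here. Values were present for 45.0% of yeast rows on array 1, 67.1% on array 2, 85.7% on array 3 and 82.6% on array 4. In all, 4090 rows had 3 or 4 values and were tested, and 2715 of them had 4. The number of arrays limits the precision. A gene's mean is the average of its 2 dye orientations, and the value after ± is the plain SD over its arrays. As the 4 arrays come from 2 cultures and differ in dye, this SD mixes dye and hybridisation differences. It is not the error of the mean. Where array 1 had no value, array 3 alone stands for its orientation and weighs as much as arrays 2 and 4 together. The cultures are bulk samples, so a lower level in all cells and a lower level in part of the cells cannot be told apart.

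The mitochondrial ribosomal protein genes lay slightly below 0 as a group, and no single gene passed the test. Their means ran from −0.52 to 0.15, with a median of −0.24, which corresponds to 0.846 times the untreated level. The median over all 4090 tested rows was −0.05. The means of 58 of the 64 genes lay below 0 (90.6%), against 58.5% of all tested rows. No gene had a mean beyond 1 in size, whereas 83 of all tested rows did.

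By limma on the means of the 2 cultures, 0 of the 64 genes were called at an adjusted p under 0.05 after Benjamini-Hochberg adjustment over all tested rows, against 62 of 4090 rows (1.52%), of which 56 were higher and 6 lower. At an unadjusted p under 0.05, 6 of the 64 genes were lower (9.38%) and 0 higher, while 4.91% of all tested rows were lower at that level. The smallest adjusted p among the genes was 0.325. These p-values rest on the spread between 2 culture means per gene, which limma draws towards a spread shared by all tested rows. The shared spread weighed more than the gene's own. Its prior degrees of freedom were 4.92 with arrays 1+2 and 3+4 as cultures, and 30.1 with arrays 1+4 and 3+2. A p that misses the threshold does not show that a level stayed the same. The called rows all had means of at least 0.92 in size, and the largest mean among the mitochondrial ribosomal protein genes was 0.52 in size. Means of the size seen here were therefore smaller than any that this design called.

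The genes' median lay below that of all tested rows on each array, by an amount that differed between arrays. On array 1 the median of the 49 genes with a value was −0.22, and 39 of them lay below 0. On array 2 the median of the 64 genes was −0.09 and 36 lay below 0. Array 2 was thus the array on which the genes stood nearest to 0. Their share below 0 there, 56.25%, was close to the 52.3% of all tested rows. On array 3 the median was −0.28 with 56 of 64 below 0, and on array 4 it was −0.23 with 51 of 64 below 0. The medians of all tested rows on the same arrays were −0.06, −0.02, −0.07 and −0.02. Their shares below 0 were 56.9%, 52.3%, 56.6% and 52.7%. The difference between the genes' median and that of all tested rows was −0.16 on array 1, −0.07 on array 2, −0.21 on array 3 and −0.21 on array 4, a mean of −0.16 with an SD over arrays of 0.06. The 4 arrays come from 2 cultures, so this SD is no spread over independent samples. As these are medians over genes chosen with earlier results known, no test was made of them.

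**Figure D1:**
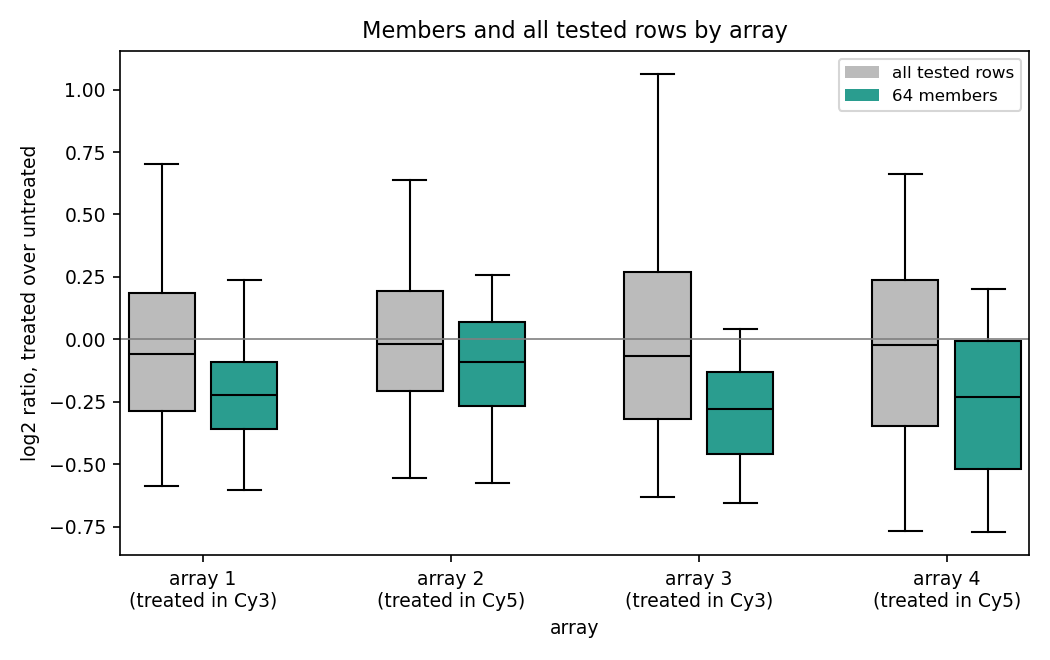
Log2 ratio of treated over untreated cells (vertical axis) on each array (horizontal axis) for the 64 mitochondrial ribosomal protein genes (green) and all 4090 tested rows (grey). Boxes span the middle 50% with the median as a line, and whiskers reach the 5th and 95th percentiles. The green medians are −0.22, −0.09, −0.28 and −0.23, each below the grey median of its array.

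Both dye orientations placed the group below 0. The median over genes was −0.28 for the arrays with treated RNA in Cy3 and −0.16 for those with treated RNA in Cy5, against −0.07 and −0.04 over all tested rows. In 43 of the 64 genes the mean was below 0 in both orientations (67.2%), compared with 32.6% of all tested rows. For the 15 genes without array 1 the Cy3 value is array 3 alone. In 23 of the 64 genes every measured array was below 0 (35.9%), against 15.6% of all tested rows. Of the 49 genes with 4 values, 20 were below 0 on all 4 arrays, 22 on 3, 4 on 2 and 2 on 1. RSM10 was the remaining gene and was above 0 on all 4.

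The order of the genes was poorly held between arrays. Across the genes, which share arrays and labelled RNA and are not independent, arrays 1 and 3 of the same dye orientation had a Spearman rho of 0.24 and arrays 2 and 4 a rho of 0.12. For arrays of opposite orientation rho was −0.50 between arrays 1 and 2, −0.04 between 1 and 4, −0.17 between 2 and 3 and 0.14 between 3 and 4. Over all tested rows, rho was 0.36 and 0.42 for the same orientation and −0.06 to 0.16 for opposite orientations. Ranks within the group are therefore given below only as a description. The SD over arrays of the single genes ran from 0.07 to 0.61 with a median of 0.26, against a median of 0.30 over all tested rows, and 27 of the 64 genes had a mean farther from 0 than their own SD, 25 of them below 0. The share of all tested rows with such a mean in either direction was 27.0%.

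**Figure D2:**
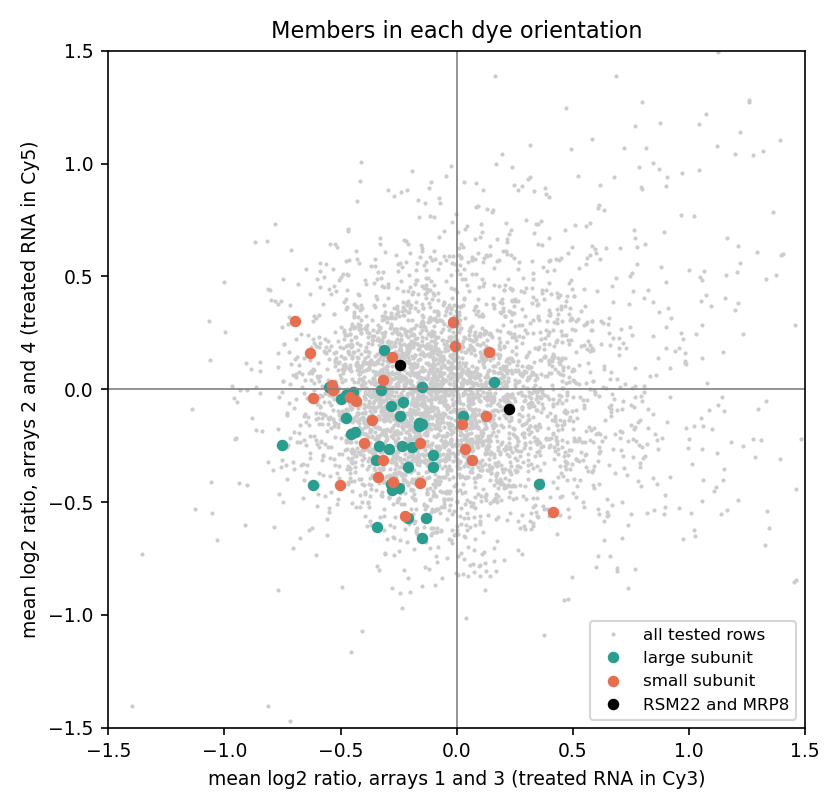
Mean log2 ratio on the arrays with treated RNA in Cy3 (horizontal axis) against the mean on those with treated RNA in Cy5 (vertical axis), 1 point per gene. For the 15 mitochondrial ribosomal protein genes without array 1 the horizontal position is array 3 alone. The same holds for 1321 of the 1375 tested rows with 3 values. Grey points are all tested rows, of which 82 lie beyond the axes. Coloured points are the mitochondrial ribosomal protein genes, and 43 of the 64 lie at the lower left, below 0 in both orientations.

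The large subunit holds the peptidyl transferase centre and the exit tunnel through which the new chain leaves. Its 36 measured genes had a median of −0.26, and 35 of them had a mean below 0. The 23 with a bacterial counterpart all had means below 0, with a median of −0.28. For MRP20 this rests on array 3 (−0.31), since it lacked array 1 and was above 0 on arrays 2 and 4. Of the 23, 11 were below 0 on every array measured.

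Within these, MRPL19, the counterpart of bacterial L11 at the base of the factor-binding stalk, had −0.61, 0.0039, −0.63 and −0.85 on arrays 1 to 4. Arrays 1, 3 and 4 were low and array 2 was at 0. Its mean of −0.52 ± 0.37 was the lowest of the whole group and did not pass (adjusted p = 0.336 by limma). With arrays 1 and 4, and 3 and 2, taken as the culture pairs, MRPL19 was called (adjusted p = 0.0468 by limma). That pairing called 288 of all 4090 tested rows and only 1 of the 64 genes. Over the 15 alternative fits the adjusted p of MRPL19 ran from 0.0468 to 0.68.

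MRP35, the counterpart of bacterial L35, had −0.30, −0.46, −0.38 and −0.75 on arrays 1 to 4. All 4 arrays were low, with the lowest value on array 4. Its mean was −0.48 ± 0.20, with the smallest p of the group (unadjusted p = 0.019, adjusted p = 0.325 by limma).

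MRPL38, the counterpart of bacterial L14, had −0.19, −0.46, −0.23 and −0.23. All 4 arrays were below 0 and array 2 was the lowest (mean −0.28 ± 0.12, adjusted p = 0.516 by limma). MRPL22, the counterpart of L22, a protein that lines the exit tunnel, was close to 0 at 0.06, −0.20, 0.0012 and −0.03, with a mean of −0.04 ± 0.11.

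The other large subunit genes with a bacterial counterpart had means between −0.36 and −0.07. From the lowest upward these were MRPL49, MRPL32, MRPL23, MRPL10, MRP7, MRPL6, MRPL39, MRPL1, MRPL40, MRPL16, MRPL8, MRPL36, MRPL9, MRPL7, MRPL50, MRPL24, MRPL11, MRPL4 and MRP20. They include parts of very different places in the ribosome. MRPL1 corresponds to the protein of the mobile L1 stalk (mean −0.29 ± 0.13), MRP7 to L27 near the peptidyl transferase centre (−0.33 ± 0.26), MRPL9 to L3, which reaches towards that centre (−0.23 ± 0.27), and MRPL11 to L10, which anchors the stalk (−0.15 ± 0.09). MRP20 and MRPL40, the counterparts of L23 and L24 at the tunnel exit, had −0.07 ± 0.28 and −0.28 ± 0.44.

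The 13 measured large subunit proteins without a bacterial counterpart had a median of −0.18, and 12 of the 13 had means below 0. MRPL25, whose loss is known to extend replicative lifespan and which is also named AFO1, had no value on array 1 and had 0.17, −0.75 and −0.66 on arrays 2 to 4. Its arrays disagreed in sign, and its mean of −0.50 ± 0.50 was as large as its spread (adjusted p = 0.693 by limma). With 3 values, 1 of its culture means is a single array.

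MRPL51 had 0.04, −0.51, −0.34 and −0.81 on arrays 1 to 4, and MRPL20 had −0.11, −0.60, −0.31 and −0.54. In both genes arrays 2 and 4, with the treated RNA in Cy5, were lower than arrays 1 and 3. Their means of −0.41 ± 0.35 and −0.39 ± 0.22 had adjusted p of 0.408 and 0.389 by limma. MRPL44 had 0.17, −0.89, 0.53 and 0.05, an SD of 0.61 around a mean of −0.03, and its low value lay on array 2 alone.

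MRPL35 was the large subunit gene with a mean above 0. It had 0.07, 0.16 and −0.01 on arrays 2 to 4 (mean 0.10 ± 0.09, adjusted p = 0.944 by limma). The others of this class were MRPL27 (−0.35), MRPL37 (−0.24), MRPL31 (−0.22), MRPL17 (−0.18), MRPL28 (−0.16), MRPL13 (−0.16), MRP49 (−0.15) and MRPL3 (−0.07).

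**Figure D3:**
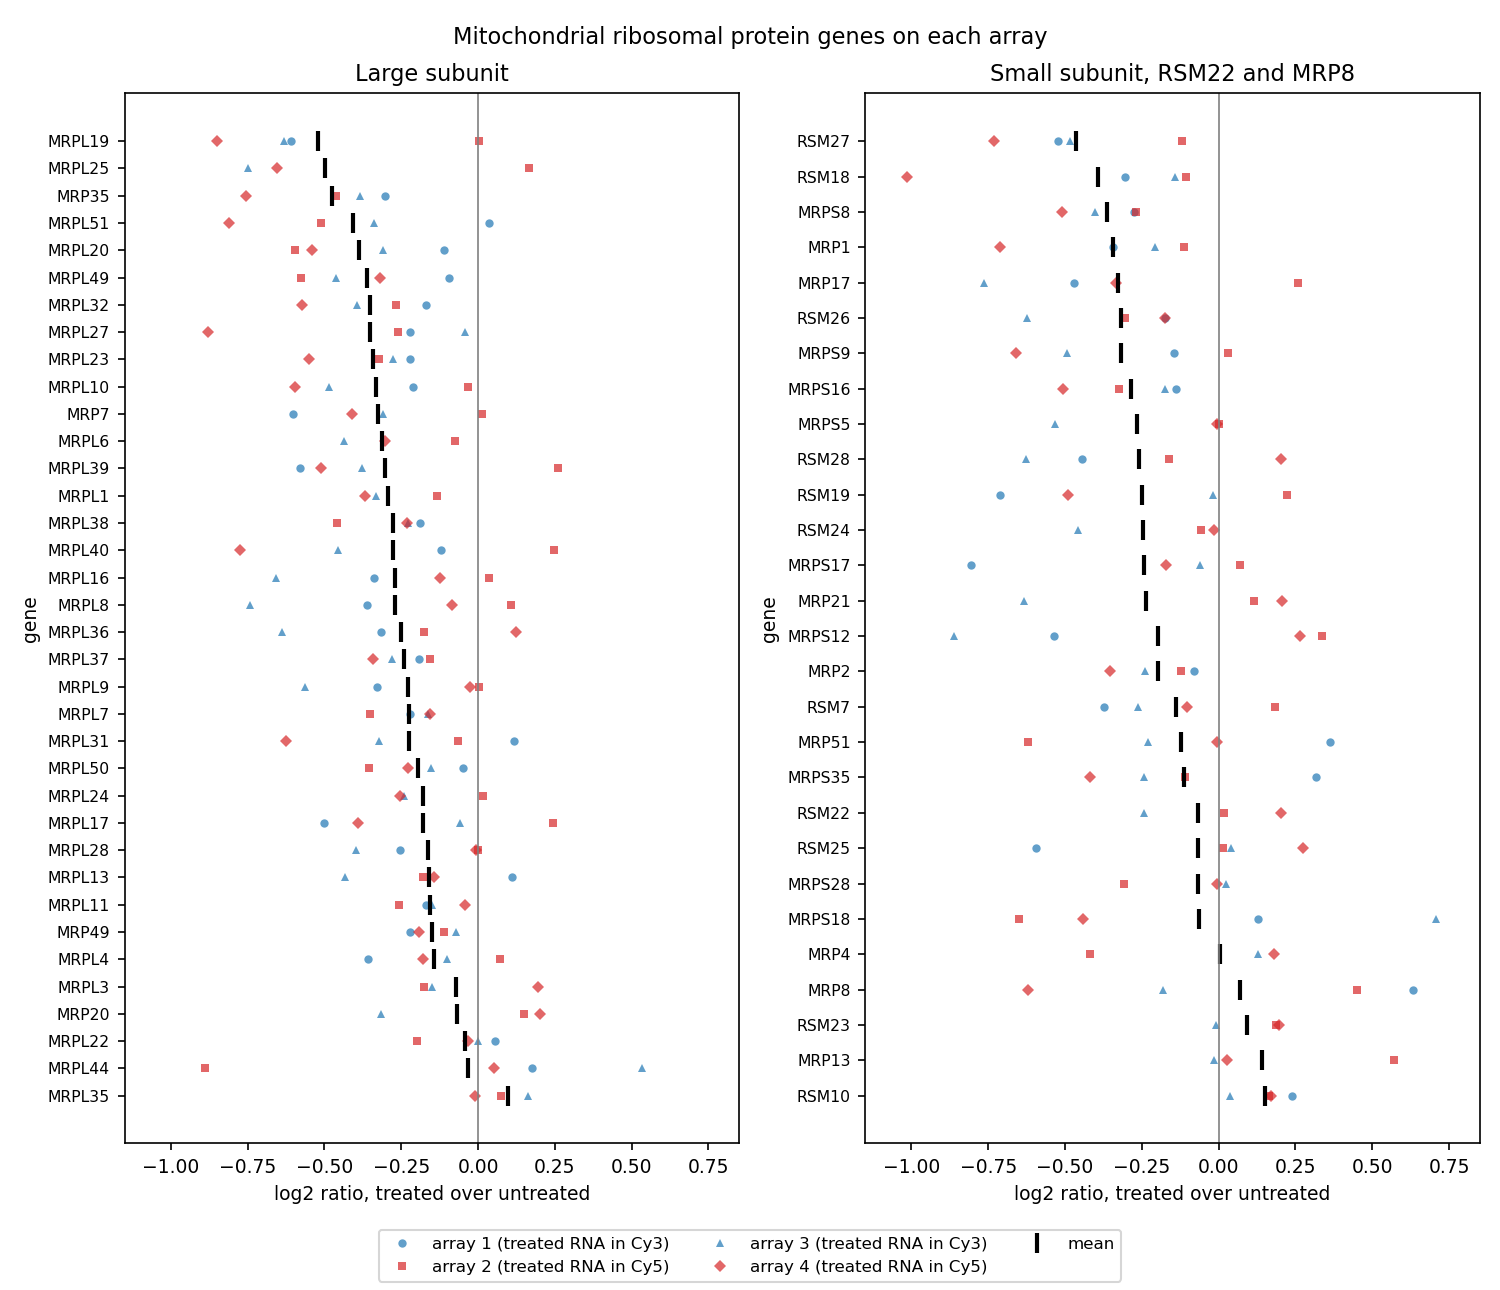
Log2 ratio of treated over untreated cells (horizontal axis) for each of the 64 mitochondrial ribosomal protein genes (vertical axis, ordered by mean), with the large subunit on the left and the small subunit, RSM22 and MRP8 on the right. Symbols are single arrays, blue for treated RNA in Cy3 and red for treated RNA in Cy5, and black bars are means. Means lie below 0 for 35 of 36 genes on the left and 23 of 28 on the right, while single arrays of a gene often lie on both sides of 0.

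The small subunit binds the message and reads the codons. Its 26 measured genes had a median of −0.24, with 22 means below 0 and 4 above. On array 2 their median was −0.08 and 14 of 26 lay below 0, and on array 4 it was −0.14 with 18 of 26 below 0. For the large subunit the medians on arrays 2 and 4 were −0.12 and −0.28. On array 3 the large subunit had −0.32 and the small subunit −0.23. On array 1 the small subunit had the lower median, −0.30 against −0.22. The large subunit was thus the lower on 3 of 4 arrays, and the difference between the subunits was not tested.

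RSM27, a small subunit protein without a bacterial counterpart, had −0.52, −0.12, −0.48 and −0.73 on arrays 1 to 4. All 4 arrays were low, with array 2 nearest to 0. Its mean of −0.46 ± 0.25 was the lowest of the small subunit (unadjusted p = 0.0248, adjusted p = 0.348 by limma).

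RSM18, the counterpart of bacterial S18, had −0.30, −0.11, −0.14 and −1.01, with its lowest value on array 4 (mean −0.39 ± 0.42, adjusted p = 0.426 by limma). MRPS8, the counterpart of S8, an early binder in small subunit assembly in bacteria, had −0.28, −0.27, −0.40 and −0.51. Its arrays lay close together, and its mean was −0.36 ± 0.11 (adjusted p = 0.412 by limma).

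In many genes of both subunits, such as MRPL44 and MRPL8 of the large subunit, the dye orientations differed more than the mean did from 0. In others, such as MRPS8, they differed less. The largest differences between orientations were those of MRPS12 and MRPS18 in the small subunit. MRPS12, the counterpart of S12 at the decoding site, had −0.53, 0.34, −0.86 and 0.27 on arrays 1 to 4, low with treated RNA in Cy3 and above 0 in Cy5. MRPS18, the counterpart of S11 on the platform, ran the other way at 0.13, −0.65, 0.71 and −0.44. The orientations did not overlap in either gene, and the means were −0.20 ± 0.59 and −0.06 ± 0.61 (adjusted p = 0.654 and 0.938 by limma).

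The small subunit genes with means above 0 were RSM10, MRP13, RSM23 and MRP4. RSM10, the counterpart of S10, had 0.24, 0.17, 0.04 and 0.17 and was above 0 on all 4 arrays (mean 0.15 ± 0.08, adjusted p = 0.735 by limma). MRP13 had 0.57, −0.01 and 0.03 on arrays 2 to 4, with its mean of 0.14 resting mainly on array 2. RSM23, the yeast relative of the GTP-binding protein DAP3 of animals, had 0.19, −0.0074 and 0.20 on arrays 2 to 4 (mean 0.09 ± 0.11), and MRP4, the counterpart of S2, had −0.42, 0.13 and 0.18 (mean 0.01 ± 0.33).

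The remaining small subunit genes had means between −0.34 and −0.07. With a bacterial counterpart these were MRP17, MRPS9, MRPS16, MRPS5, RSM19, MRPS17, MRP21, MRP2, RSM7, MRP51 and MRPS28, and without one MRP1, RSM26, RSM28, RSM24, MRPS35 and RSM25. RSM7, RSM19 and MRPS9 correspond to proteins of the subunit's head, and had −0.14 ± 0.24, −0.25 ± 0.43 and −0.32 ± 0.32. MRP1 had −0.34 ± 0.26 and RSM26, which like MRP1 is related to manganese superoxide dismutase in sequence, −0.32 ± 0.21, each below 0 on all 4 arrays.

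The 2 genes without a systematic ribosomal name are given apart, and their difference from the others was not tested. RSM22, related to methyltransferases and known as a factor of small subunit assembly, had 0.02, −0.24 and 0.20 on arrays 2 to 4 (mean −0.07 ± 0.22). MRP8, which is not established as a ribosomal protein, had 0.63, 0.45, −0.18 and −0.62 on arrays 1 to 4, so that arrays 1 and 2 were high and arrays 3 and 4 low. Its mean of 0.07 ± 0.58 became −0.13 without array 1 and −0.20 without array 2.

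Genes lacking a value on array 1 stood nearer to 0. All 15 genes with 3 values lacked array 1, the array with the fewest values, and their median was −0.07, with 11 of 15 means below 0. In 7 of the 15 only 1 array was below 0. Of these, MRP21, MRP20 and RSM22 had means below 0 although arrays 2 and 4 were above 0. The 49 genes with 4 values had a median of −0.25, with 47 of 49 below 0. On array 4 the medians of these 2 sets were −0.0049 and −0.34, on array 3 −0.24 and −0.28, and on array 2 0.02 and −0.11. Over all tested rows the medians were −0.04 for rows with 3 values and −0.05 for rows with 4. Spot intensities were not used here, so whether the blanks mark weak signals was not tested.

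Gene length moved with the ratio. Across the 64 genes the mean ratio correlated with annotated gene length at a Spearman rho of 0.43 (Pearson r = 0.47), and across the 49 genes with 4 values at 0.28 (r = 0.27). Across the 3936 tested rows with a matched gene, rho was 0.28 (r = 0.12). These are descriptions across genes that share arrays. The 17 genes of at most 444 bases had a median of −0.28, and all 17 lay below 0, while the 287 tested rows up to that length had a median of −0.16, with 78.0% below 0. The 16 genes longer than 901.5 bases had a median of −0.12, with 12 of 16 below 0, against a median of −0.0020 and 50.4% below 0 for the 2593 tested rows beyond that length. Short rows were thus lower in general, the group's median was below that of all rows in both length classes, and the part of length in the shift was not tested. The genes with 3 values were also longer, with a median length of 924 bases against 588 for those with 4.

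**Figure D4:**
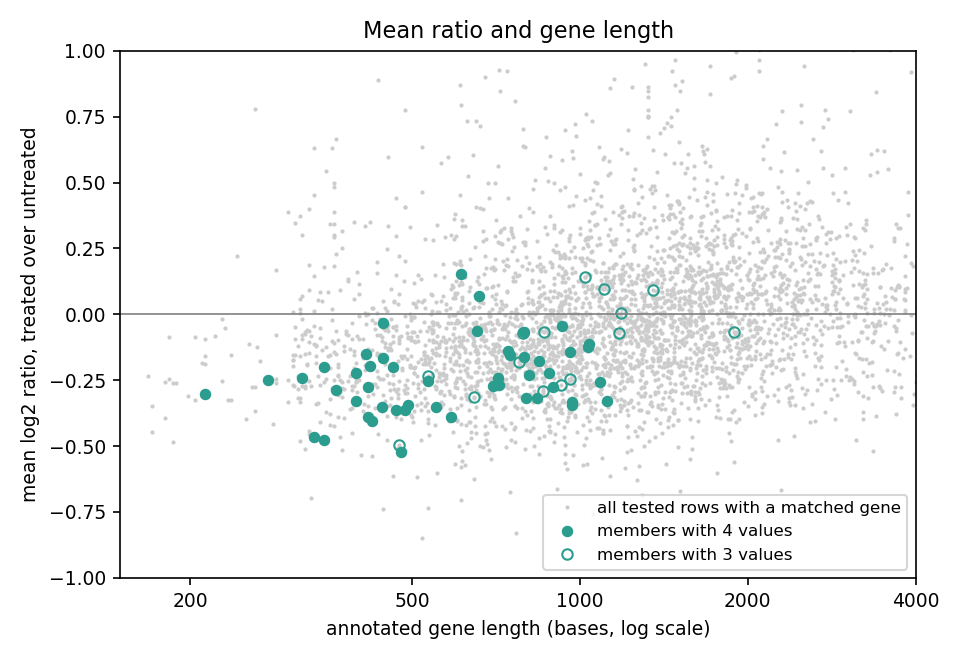
Mean log2 ratio of treated over untreated cells (vertical axis) against annotated gene length in bases (horizontal axis, log scale). Grey points are all tested rows with a matched gene, of which 209 lie beyond the axes; filled green points are mitochondrial ribosomal protein genes with 4 values and open ones those with 3. The 17 shortest genes, of at most 444 bases, all lie below 0.

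Mitochondrial ribosomal proteins with other kinds of names were also below 0 by their means. Of 12 such genes 10 were tested, 0 were called by limma, 1 was lower at an unadjusted p under 0.05, and all 10 means were below 0, with a median of −0.20. On the arrays with treated RNA in Cy5 alone the median was −0.05, with 7 of 10 below 0, and with treated RNA in Cy3 alone it was −0.32 over 9 genes. PET123, a small subunit protein, was the lowest with −0.13, −0.74, −0.10 and −0.49 on arrays 1 to 4 (mean −0.36 ± 0.31, adjusted p = 0.412 by limma), and arrays 2 and 4 were its low ones. MHR1, a large subunit protein also known for a role in mitochondrial DNA recombination, had −0.30 ± 0.40. With these 10 added, the group's median was −0.23, and 91.9% of 74 means were below 0.

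Genes that act on or with the mitochondrial ribosome were sparsely measured. Of 10 translation factors 3 were tested, with a median of −0.09. MEF1, an elongation factor, had 0.30, 0.16 and 0.45 on arrays 2 to 4, all above 0 (mean 0.27 ± 0.14, adjusted p = 0.471 by limma), and RRF1, the ribosome recycling factor, had 0.07, −0.43 and −0.63 (mean −0.35 ± 0.36). Of 13 mitochondrial aminoacyl-tRNA synthetases 3 were tested, with means between −0.16 for MST1 and 0.15 for MSK1, the threonyl and lysyl enzymes. Of 17 translational activators of single mitochondrial messages 7 were tested, with a median of −0.03, and the largest in size were CBS2 (−0.22 ± 0.44) and CBP6 (−0.17 ± 0.12), both needed to translate the cytochrome b message. Of 17 genes of ribosome assembly and mitochondrial gene expression 9 were tested, with a median of −0.01. MTF1, the specificity factor of mitochondrial RNA polymerase, had −0.23, −0.63 and −0.38 on arrays 2 to 4 (mean −0.47 ± 0.20, adjusted p = 0.43 by limma), and SUV3, a helicase of the mitochondrial RNA degradosome, had −0.18 ± 0.12. None of the tested genes in these lists was called by limma, and none had an unadjusted p under 0.05. Many genes of these lists had too few values, so these medians do not speak for the lists.

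Nuclear genes of the respiratory chain and ATP synthase, whose partner subunits the mitochondrial ribosome makes, also lay below 0. Of 40 genes 36 were tested, 0 were called by limma and 4 were lower at an unadjusted p under 0.05, with a median of −0.19 and 30 of 36 means below 0. This count of 0 changed with the fit: 1 to 3 genes of the list were called in 7 of 15 alternative fits. It was 3 when arrays 1 and 4, and 3 and 2, formed the culture pairs, a fit that called 288 of all 4090 rows. Each of the 7 fits also called more of all rows, 89 to 288, than the 62 of the fit reported here. QCR6, a subunit of complex III, had −0.48, −0.91, −0.34 and −1.23 (mean −0.74 ± 0.41, adjusted p = 0.0991 by limma), and CYC1, the main cytochrome c, had −0.58, −0.54, −0.995 and −0.67 (mean −0.70 ± 0.21, adjusted p = 0.146). Both were lower than every mitochondrial ribosomal protein gene by their means. Of 138 cytosolic ribosomal protein genes 129 were tested, 0 were called and 2 were lower at an unadjusted p under 0.05, with a median of −0.14 and 118 of 129 means below 0 (91.5%). Beside the counts of both lists, 4.91% of all tested rows were lower at that level by limma, and 58.5% had a mean below 0. The largest in size were RPS29B (−0.44 ± 0.40) and RPL36A (−0.43 ± 0.32), of the small and large cytosolic subunits.

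On arrays 1 to 4 the medians of the respiratory list were −0.17, −0.04, −0.32 and −0.29, and those of the cytosolic ribosomal list −0.07, −0.09, −0.23 and −0.05. The respiratory list, like the mitochondrial ribosomal genes, stood nearest to 0 on array 2 and lower on arrays 3 and 4, whereas the cytosolic ribosomal list did not have its value nearest to 0 there. The share of means below 0 in the mitochondrial ribosomal genes, 90.6%, was close to that of the cytosolic list. Differences between these lists were not tested.

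**Figure D5:**
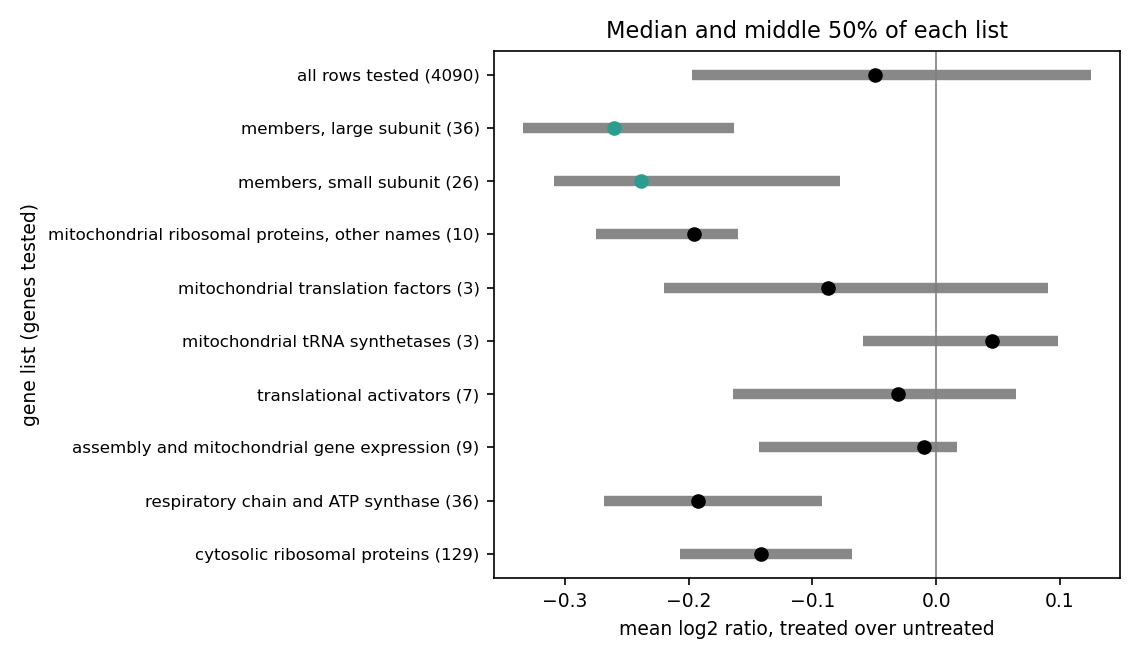
Median (dots) and middle 50% (bars) of the genes' mean log2 ratios of treated over untreated cells (horizontal axis) for each gene list (vertical axis, with the number of genes tested). Green dots are the mitochondrial ribosomal protein genes, at −0.26 for the large and −0.24 for the small subunit, and black dots the other lists and all tested rows, at −0.05. The bars of the 4 lists with 3 to 9 tested genes reach to both sides of 0.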

How the data were processed

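Total RNA was labelled with Cy3 or Cy5 and hybridised to two-colour arrays, per the labels. The authors deposited 1 table of normalized log2 ratios per row and array, whose sign follows the dye. What scanner, background correction, normalization and blank filter were used is not given in the labels. The base was checked from the values: with the signs of arrays 2 and 4 turned, 100% of the 9281 values for ratios under 1 were base-2 logarithms of ratios with 4 decimals, against 56.4% after random shifts of the last digits. Values were kept as deposited, with column medians of −0.06, 0.02, −0.08 and −0.03.

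After leaving out 2 control rows, 5654 of 6207 rows matched a locus tag in RefSeq's table of assembly R64, which gave symbols, systematic names and gene lengths. Coordinates are not printed, because no build is named for the array.

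The cultures were the replicates (n = 2). Which arrays share a culture is not stated, so culture means were formed for both possible dye-swap pairings and tested against 0 with limma 3.58.1 in R 4.3.3. The larger p per row was kept and adjusted by Benjamini-Hochberg over all 4090 rows with 3 or 4 values. A call needed an adjusted p under 0.05 and 1 sign in both pairings. The fit was tested on simulated data. Where a row has 3 values, 1 culture mean is a single array, whose dye effect does not cancel.

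The genes, lists and tests were chosen with earlier results of these data known. Named genes were the 8 lowest and 8 highest by mean, the 4 with the largest SD, those with 1 outlying array, and of each other list the 2 largest in size; further genes were named for their role after their values were seen.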

Additional observations from a re-analysis of the deposited data

Results flagged for a closer look

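Of the 49 mitochondrial ribosomal protein genes with 4 values and 14 genes named from other lists, 63 in all, 1 had a single array far from the other 3. At a rate of 1 in 20, chance gives 3.15 among this many. MRPL38 was −0.46 on array 2, against −0.19 to −0.23 on arrays 1, 3 and 4. All 4 values were below 0, and the cause was not tested.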

How the results depend on the processing

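Cultures were the replicates and only 2 were measured, so the precision is low. Treated and untreated cells are already paired within each ratio, and the array numbers do not say which arrays share a culture. The count of called rows, 62, of which 90.3% were higher, fell outside a 1.5-fold range in 7 alternatives besides those leaving out 1 array. These 7 include the fits of the Cy3-treated and of the Cy5-treated arrays alone, which do not use all 4 arrays. The count was 18 after scaling arrays equally and 101 when the 4 arrays served as replicates. Adding a dye effect to that model gave 156, and taking each culture as a random block gave 160. The correlation within cultures in the random-block fit was negative, which makes the error of a mean smaller. It was −0.317 with arrays 1+2 and 3+4 paired and −0.472 with 1+4 and 3+2. Pairing arrays 1+4 and 3+2 gave 288 (75.4% higher). The Cy3-treated arrays alone gave 146 of 2762 rows, and the Cy5-treated arrays 118 of 4043 rows (79.7% higher). Leaving out 1 array gave 22 of 2744 rows (array 2) to 129 of 2722 rows (array 3, 77.5% higher). Mitochondrial ribosomal protein genes called numbered 0 by limma in these fits, and also under robust variances, centring, 4-value rows or the 1+2 and 3+4 pairing. The exception was 1 gene, MRPL19, under the 1+4 and 3+2 pairing. Their median of −0.24 moved to −0.159 on the Cy5-treated arrays alone, by more than the SD between arrays, and otherwise stayed between −0.298 and −0.196. With untreated over treated it would be 0.242, with 9.38% of means below 0. The share below 0 stayed between 79.7% and 95.9% in the other settings. Of 19 named genes, 13 kept their sign in every fit they entered. MRPL44, MRP8, MRP4, MRPS18, MRPS12 and MRPL22 took the other sign in 13 of their values under these fits, none of them called.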
